A study of Mus musculus with 16 samples.

Results

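The expression of 35 astrocyte genes was examined in mouse primary cortical neurons after oxygen-glucose deprivation (OGD) and tianeptine (TIA). The genes were chosen by name as markers of astrocyte identity, of the progenitors from which astrocytes arise and of the reactive state. They were chosen with earlier results of these data known. All 35 were found among the 53679 gene symbols of the table, with 190 of its 135202 isoforms. Cortical neurons of wild-type mouse embryos (E15) received 10 μM TIA, an atypical antidepressant, or its vehicle, DMSO, on DIV 8 (day in vitro), and 24 h later, on DIV 9, they were exposed to 3-h OGD, an in vitro model of ischaemic stroke, or to sham treatment, followed by 6 h of reoxygenation. RNA-seq was run on 16 cultures, 4 in each of the groups CONTROL-VEH (numbered 1 to 4), CONTROL-TIA (5 to 8), OGD-VEH (9 to 12) and OGD-TIA (13 to 16), and the labels call the vehicle cultures untreated. The study calls the 4 cultures of each group biological replicates. Nothing in the labels says whether the cultures of a group came from separate preparations, so the p-values measure the spread between these cultures.

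Astrocytes support neurons by taking up glutamate, buffering ions and water, and supplying lipids and metabolites, and their identity genes encode the proteins for these tasks. They arise from radial glia, whose filament, lipid-binding and transcription factor genes stay active in immature astrocytes. After ischaemia or inflammation astrocytes turn reactive. Some reactive genes are induced by most kinds of injury (pan-reactive), and others have been linked to ischaemia (often called A2) or to inflammation (often called A1).

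Levels are given as FPKM (fragments per kilobase of transcript and M mapped reads), scaled between libraries, and the isoforms of each gene were summed. FPKM are relative to transcript length, so levels of different genes can be compared with each other, with the reservation on short isoforms given below for *Gfap*. Depth was estimated at 19.98 to 25.59 M reads per culture, so that a single read on 1 kilobase of transcript was worth 0.0391 to 0.0501 FPKM. Differences were tested by limma on log2(FPKM + 0.1), a scale that understates the fold change of low genes, among genes whose mean reached 0.5 FPKM. The log2 fold change (log2FC) is given ± its standard error. A gene was called a differentially expressed gene (DEG) if its p-value, Benjamini-Hochberg adjusted over all genes tested (padj), did not exceed 0.05 and its log2FC was 1 or more in either direction. The filter on low values was passed by 30 of the 35 genes and not by *Slc14a1*, *Lcn2*, *Steap4*, *Aspg* and *Tgm1*. In bulk RNA, fewer or more astrocytes and less or more RNA per astrocyte cannot be told apart. FPKM are also relative to all mapped reads. A change in the RNA of other cells, or expression of the same genes by other cells, cannot be told apart from these either.

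The labelled cell type was checked by marker genes. All 15 neuron markers were detected in every culture, and their summed level was 3301, 3380, 3685 and 3911 FPKM in CONTROL-VEH 1 to 4. The doublecortin gene *Dcx* of young neurons alone had 152, 172, 184 and 185 FPKM there. Astrocyte transcripts were abundant in the same RNA. The 17 identity genes summed to 3542, 3438, 3993 and 8269 FPKM in CONTROL-VEH and to 3784, 2927, 3423 and 3850 FPKM in CONTROL-TIA, most of which came from *Apoe*, *Ndrg2* and *Ttyh1*. Microglia and endothelial cells were close to absent, with sums of 0.62 to 3.15 FPKM for 11 microglia markers and 0.49 to 1.6 FPKM for 6 endothelial markers over the 16 cultures. The microglial receptor gene *Cx3cr1* was listed at 0 in 12 of them.

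In order of mean FPKM over the 16 cultures, the highest of the 35 genes was *Apoe* (2030), which encodes the lipid carrier apolipoprotein E, followed by *Fabp7* (1589), a lipid-binding protein of radial glia, and by *Ndrg2* (1208). *Vim* (868), a filament gene, *Ttyh1* (555), a chloride channel gene, and *Mfge8* (452), whose secreted product tags cell debris for uptake, came next. In the middle of the order stood *Aldh1l1* (178), a folate enzyme, *Clu* (83.3), a secreted chaperone, *Sox9* (28.7), a transcription factor, *Gfap* (24.6), the filament protein of mature astrocytes, and *Aqp4* (12.6), the water channel of astrocyte end-feet. *S100b*, a calcium-binding protein, was the lowest of the genes that passed the filter, at 0.914 FPKM. The ranges of *Apoe*, *Fabp7* and *Ndrg2* over the 16 cultures overlapped, and no test of levels between genes was run.

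The last-numbered cultures of CONTROL-VEH, OGD-VEH and OGD-TIA stood apart, and this touches every comparison below. In CONTROL-VEH 4, 13 of the 16 identity genes tested were the highest of their group, against 32.7% of all genes, and 9 of 16 (56.2%) were at least 2-fold above the mean of the other 3 cultures, against 5.2% of all genes. *Gfap* had 6.95, 6.53, 7.56 and 87.4 FPKM in CONTROL-VEH 1 to 4, *Aqp4* had 8.63, 8.77, 10.7 and 23.4 FPKM and *Clu* had 62.7, 57.0, 73.0 and 236 FPKM. Not every astrocyte gene was high in that culture. *Aldh1l1* had 153, 142, 180.1 and 60.6 FPKM and was lowest there, and the median ratio to the other 3 cultures was 2.28 for the identity genes, 0.794 for the radial glia genes and 0.483 for the 5 A2 genes tested. In OGD-VEH 12, all 30 genes tested were the highest of their group, and in OGD-TIA 16, 29 of 30 were, against 36.9% and 38.7% of all genes. In OGD-TIA 16, 19 of 30 genes (63.3%) were at least 2-fold above the mean of the other 3 cultures, against 8% of all genes. CONTROL-TIA 8 stood apart less: *Gfap* alone, at 15.1 FPKM, was at least 2-fold above the other 3, and the median ratio over the 30 genes was 1.04. Of the 16 identity genes, 7 were the highest of their group there, against 23.5% of all genes, with a median ratio of 1.125. The neuron markers went the other way after OGD but not in the control: their sum was highest of the group in CONTROL-VEH 4 (3911 FPKM) and lowest in OGD-VEH 12 (1520) and OGD-TIA 16 (2011). What sets these cultures apart was not tested.

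**Figure D1:**
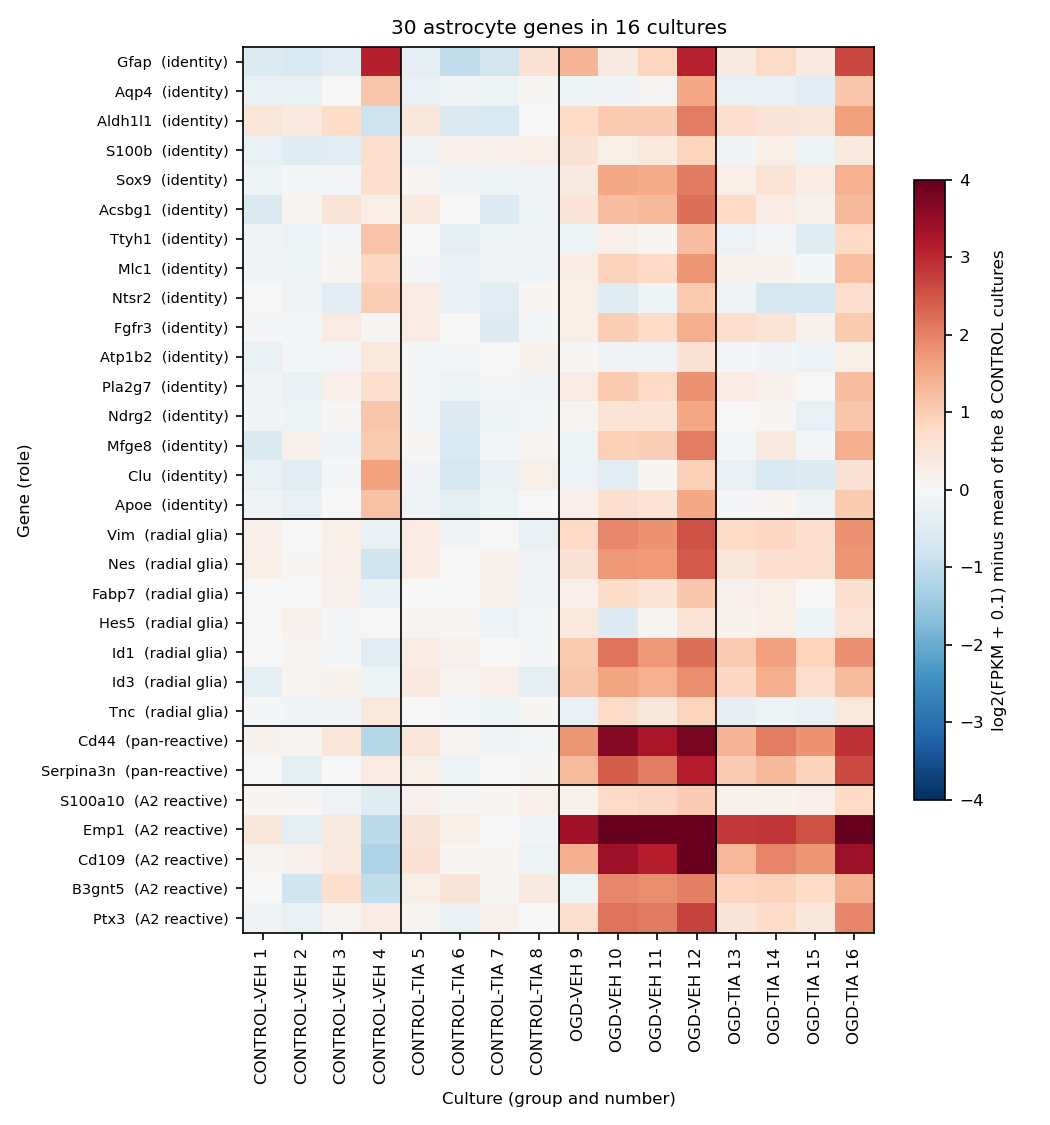
Heat map of the 30 astrocyte genes that passed the filter (rows, grouped by role) in the 16 cultures (columns), coloured by log2(FPKM + 0.1) minus the mean of the 8 CONTROL cultures, with colours saturating at 4. CONTROL-VEH 4 is red for most identity genes and blue for most radial glia and reactive genes, whereas OGD-VEH 12 and OGD-TIA 16 are red in nearly every row.

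The first comparison asked what OGD did to these genes without the drug. In OGD-VEH against CONTROL-VEH, 9 of 30 genes tested were called, all of them higher after OGD, against 2.4% of all 16346 genes tested called higher and 4.09% called in either direction. The 9 were *Emp1*, *Cd44*, *Cd109*, *Serpina3n*, *Ptx3*, *Id1*, *Vim*, *Nes* and *Id3*, all reactive or radial glia genes. Of the identity genes, 0 of 16 were called by limma, although 6 had an unadjusted p under 0.05. Over the 30 genes such a p with a higher level after OGD was reached by 18, against 20.2% of all genes. The median log2FC was 0.849 over the 30 genes and 0.104 over all genes. By role it was 0.729 for the identity genes, 1.57 for the radial glia genes, 2.73 for the 2 pan-reactive genes tested and 1.90 for the A2 genes. Each gene was given a single role, so that *Gfap* (identity) and *Vim* (radial glia) were not counted with the reactive genes. For 12 of 30 genes every OGD-VEH culture lay above every CONTROL-VEH culture, which held for 12.7% of all genes. The neuron markers moved the other way: 0 of 15 had a positive log2FC, against 9512 of all 16346 genes tested. Their median was -0.909 and 1 was called lower (*Syt1*, a synaptic vesicle protein, -1.52), against 1.68% of all genes called lower. The part of this shift in the astrocyte result was not tested. The number of calls depended on single cultures: it was 0 without CONTROL-VEH 2 or 3 or OGD-VEH 10 or 11, 1 without CONTROL-VEH 1 or 4, 3 without OGD-VEH 12 and 14 without OGD-VEH 9, and the calls over all genes moved between 1 and 2186 with them. The log2FCs were steadier, and none of the 9 fell below 1.43 when a culture was left out.

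The largest differences were among the reactive genes. *Emp1*, a tetraspan membrane protein gene (chromosome 6 from 135362545 to 135383173, GRCm38), and *Cd44*, the hyaluronan receptor gene (chromosome 2 from 102811141 to 102901665), had the highest log2FCs of the 30 genes. *Emp1* had 1.22, 0.647, 1.14 and 0.369 FPKM in CONTROL-VEH 1 to 4, against 9.85, 30.9, 21.7 and 34.2 FPKM in OGD-VEH 9 to 12 (log2FC 4.65 ± 0.46, padj = 0.0161). *Cd44* had 3.01, 2.91, 3.83 and 1.17 FPKM in CONTROL-VEH 1 to 4, against 9.48, 34.9, 26.7 and 38.8 FPKM in OGD-VEH 9 to 12 (log2FC 3.22 ± 0.50, padj = 0.0294). The lowest OGD-VEH culture was above the highest control for both, and CONTROL-VEH 4 was the lowest control. *Cd109*, a membrane-anchored binder of TGF-beta (chromosome 9 from 78615546 to 78716253), behaved alike. *Cd109* had 0.795, 0.843, 0.990 and 0.263 FPKM in CONTROL-VEH 1 to 4, against 2.17, 8.92, 7.33 and 14.5 FPKM in OGD-VEH 9 to 12 (log2FC 3.18 ± 0.58, padj = 0.0337). *Serpina3n*, a secreted serine protease inhibitor (chromosome 12 from 104406729 to 104414329), has close paralogs in its cluster, between which reads could be split. *Serpina3n* had 1.09, 0.799, 1.07 and 1.38 FPKM in CONTROL-VEH 1 to 4, against 2.73, 6.14, 4.81 and 10.3 FPKM in OGD-VEH 9 to 12 (log2FC 2.23 ± 0.38, padj = 0.0336). *Ptx3* had 2.55, 2.29, 3.06 and 3.60 FPKM in CONTROL-VEH 1 to 4, against 4.47, 13.1, 12.4 and 19.0 FPKM in OGD-VEH 9 to 12 (log2FC 1.90 ± 0.40, padj = 0.0383). *Ptx3*, a secreted pattern recognition protein (chromosome 3 from 66219910 to 66225805), and *Serpina3n* had no overlap between the groups, and OGD-VEH 9 was the lowest OGD-VEH culture for each of the 5 called genes of this paragraph. The glycosyltransferase gene *B3gnt5* (chromosome 16 from 19760208 to 19772753) was not called. *B3gnt5* had 27.4, 16.2, 43.7 and 14.1 FPKM in CONTROL-VEH 1 to 4, against 24.2, 107, 101 and 113 FPKM in OGD-VEH 9 to 12 (log2FC 1.68 ± 0.55, padj = 0.0759). In these sums OGD-VEH 9 lay within the control range while the other OGD-VEH cultures lay above it. With isoforms weighted by their length the groups were separate. *B3gnt5* then had 34.3, 30.1, 35.9 and 26.2 FPKM in CONTROL-VEH, against 44.9, 92.7, 84.8 and 103 FPKM in OGD-VEH. *S100a10*, an annexin-binding protein, had 110.0, 106, 93.0 and 73.2 FPKM in CONTROL-VEH, against 113, 176, 181 and 211 FPKM in OGD-VEH, and its padj of 0.0499 passed the threshold but its log2FC of 0.81 did not. With it, 10 of 30 genes had a padj under the threshold and a higher level, against 4.99% of all genes.

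**Figure D2:**
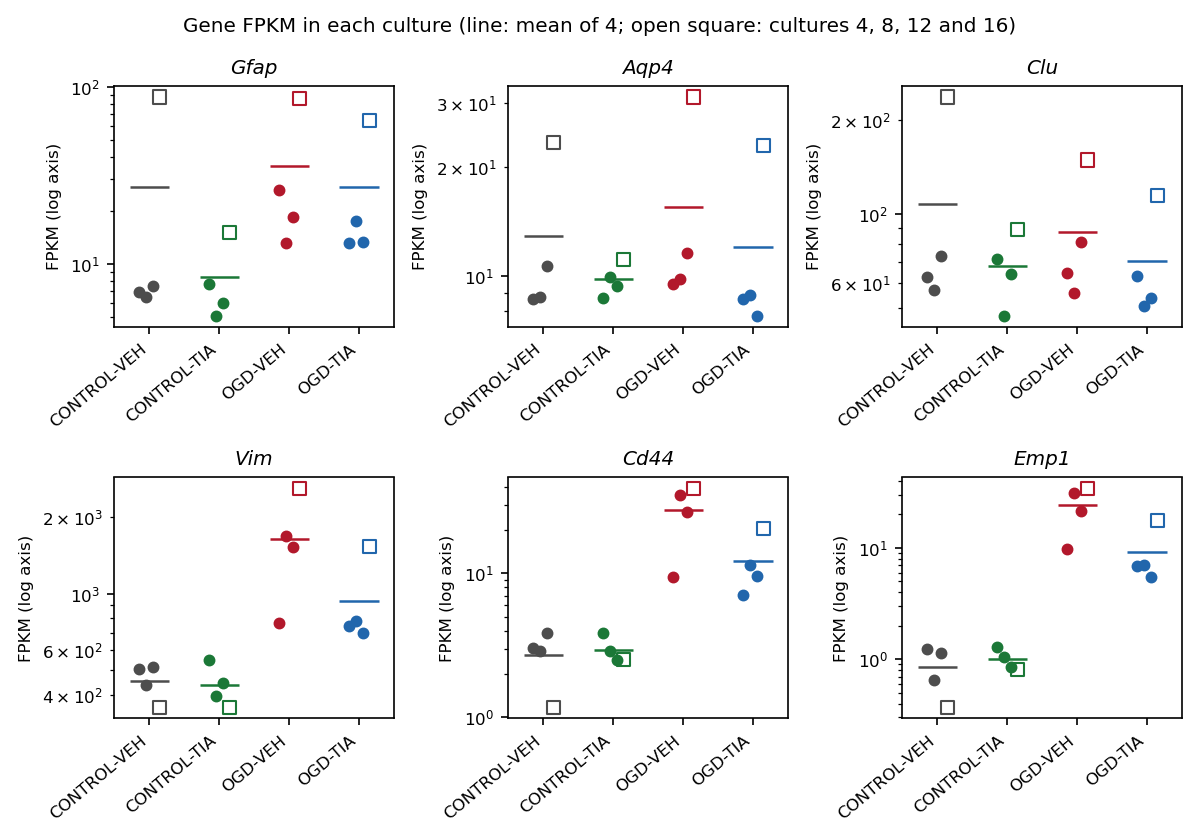
FPKM of 6 genes in each culture (log axis), by group, with a line at the mean of 4 cultures and an open square for the cultures numbered 4, 8, 12 and 16. *Gfap*, *Aqp4* and *Clu* are highest in the open-square culture of every group, whereas in *Vim*, *Cd44* and *Emp1* the OGD-VEH cultures all lie above the CONTROL-VEH cultures.

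Radial glia genes formed the other called group, with 4 of 7 called. *Vim* (chromosome 2 from 13573927 to 13582826) and *Nes* (chromosome 3 from 87971078 to 87980451) encode the intermediate filaments vimentin and nestin. *Vim* had 505, 436, 516 and 357 FPKM in CONTROL-VEH 1 to 4, against 767, 1679, 1532 and 2593 FPKM in OGD-VEH 9 to 12 (log2FC 1.74 ± 0.33, padj = 0.0339). *Nes* had 24.0, 21.1, 23.6 and 11.8 FPKM in CONTROL-VEH 1 to 4, against 31.0, 69.3, 66.9 and 113 FPKM in OGD-VEH 9 to 12 (log2FC 1.71 ± 0.39, padj = 0.0427). Neither gene's groups overlapped, and OGD-VEH 9 was the OGD culture nearest to the controls. *Id1* (chromosome 2 from 152736251 to 152737410) and *Id3* (chromosome 4 from 136143497 to 136145755) encode inhibitors of basic helix-loop-helix transcription factors and are targets of BMP signalling. *Id1* had 4.22, 4.67, 4.21 and 3.17 FPKM in CONTROL-VEH 1 to 4, against 9.01, 19.9, 14.7 and 20.3 FPKM in OGD-VEH 9 to 12 (log2FC 1.89 ± 0.27, padj = 0.0281). *Id3* had 2.69, 3.81, 3.92 and 3.11 FPKM in CONTROL-VEH 1 to 4, against 7.81, 10.7, 9.60 and 13.1 FPKM in OGD-VEH 9 to 12 (log2FC 1.57 ± 0.20, padj = 0.0266). These were the tightest of the called genes, with standard errors of 0.27 and 0.20. *Fabp7* had separate groups, at 1332, 1346, 1472 and 1098 FPKM and 1503, 2188, 1926 and 2790 FPKM, but was not called (log2FC 0.65, padj = 0.0534). *Hes5*, a Notch target, and *Tnc*, the matrix protein tenascin C, had log2FCs of 0.11 and 0.42, with overlapping groups.

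None of the identity genes passed the test. *Gfap* had 6.95, 6.53, 7.56 and 87.4 FPKM in CONTROL-VEH 1 to 4, against 26.2, 13.1, 18.4 and 85.9 FPKM in OGD-VEH 9 to 12 (log2FC 1.04 ± 0.91, padj = 0.441). CONTROL-VEH 4 was as high as the highest OGD-VEH culture, and the other 3 controls lay below all 4 OGD-VEH cultures. Without CONTROL-VEH 4 the log2FC of *Gfap* was 1.94 (padj = 0.0854 from limma), and without the cultures numbered 4, 8, 12 and 16 it was 1.39 (padj = 0.0811 from limma). *Gfap* (chromosome 11 from 102887336 to 102900912) has 3 isoforms in the table, and a processed transcript of 356 bases carries most of its sum: it was listed at 0, 0.873, 1.78 and 53.9 FPKM in CONTROL-VEH, against 16.8, 4.92, 11.6 and 57.0 FPKM in OGD-VEH. The main protein-coding isoform, of 2648 bases, had 6.38, 5.33, 5.05 and 32.1 FPKM and 9.01, 7.66, 6.37 and 27.4 FPKM. In this isoform too CONTROL-VEH 4 and OGD-VEH 12 were highest, but the other cultures of the groups lay closer together. With isoforms weighted by their length, the log2FC of *Gfap* was 0.42.

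*Aqp4* had 8.63, 8.77, 10.7 and 23.4 FPKM in CONTROL-VEH 1 to 4, against 9.52, 9.81, 11.6 and 31.2 FPKM in OGD-VEH 9 to 12 (log2FC 0.21 ± 0.45, padj = 0.768). *Aqp4* differed little between the groups and was highest in the last-numbered culture of each. *Aldh1l1* had 153, 142, 180.1 and 60.6 FPKM in CONTROL-VEH 1 to 4, against 186, 226, 221 and 448 FPKM in OGD-VEH 9 to 12 (log2FC 1.03 ± 0.38, padj = 0.0981). In these sums *Aldh1l1* (chromosome 6 from 90486427 to 90600203) was the only one of the 16 identity genes tested with separate groups. Much of its sum also came from short isoforms, of 400, 472 and 653 bases. Its lowest log2FC among the alternative settings listed below was 0.41. *S100b* had 0.608, 0.527, 0.557 and 1.33 FPKM in CONTROL-VEH 1 to 4, against 1.22, 0.930, 1.08 and 1.53 FPKM in OGD-VEH 9 to 12 (log2FC 0.66 ± 0.33, padj = 0.189). *Sox9* had 15.7, 17.1, 16.8 and 27.5 FPKM in CONTROL-VEH 1 to 4, against 22.6, 51.3, 49.5 and 75.4 FPKM in OGD-VEH 9 to 12 (log2FC 1.28 ± 0.35, padj = 0.0546). *S100b* (chromosome 10 from 76253853 to 76261159) overlapped between the groups, and so did *Sox9* (chromosome 11 from 112782224 to 112787760), for which CONTROL-VEH 4 lay above OGD-VEH 9. *Acsbg1*, an acyl-CoA synthetase, and *Fgfr3*, a fibroblast growth factor receptor, had log2FCs of 1.24 and 0.79 (padj = 0.0594 and 0.0627 from limma). With isoforms weighted by length *Fgfr3* had separate groups too. It then had 47.1, 46.8, 50.3 and 47.7 FPKM in CONTROL-VEH, against 60.4, 88.4, 77.6 and 121 FPKM in OGD-VEH. The highest-expressed identity gene, *Apoe*, had 1440, 1280, 1554 and 3535 FPKM in CONTROL-VEH, against 1826, 2451, 2301 and 4616 FPKM in OGD-VEH (log2FC 0.56 ± 0.37, padj = 0.308). For *Apoe* too CONTROL-VEH 4 lay above 3 of the OGD-VEH cultures. The other identity genes (*Ttyh1*, *Mlc1*, *Ntsr2*, *Atp1b2*, *Pla2g7*, *Ndrg2*, *Mfge8* and *Clu*) had log2FCs from -0.13 (*Clu*) to 0.88 (*Pla2g7*), and *Clu* was the only one of the 30 genes below 0. Of all 16346 genes tested, 9512 had a positive log2FC.

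**Figure D3:**
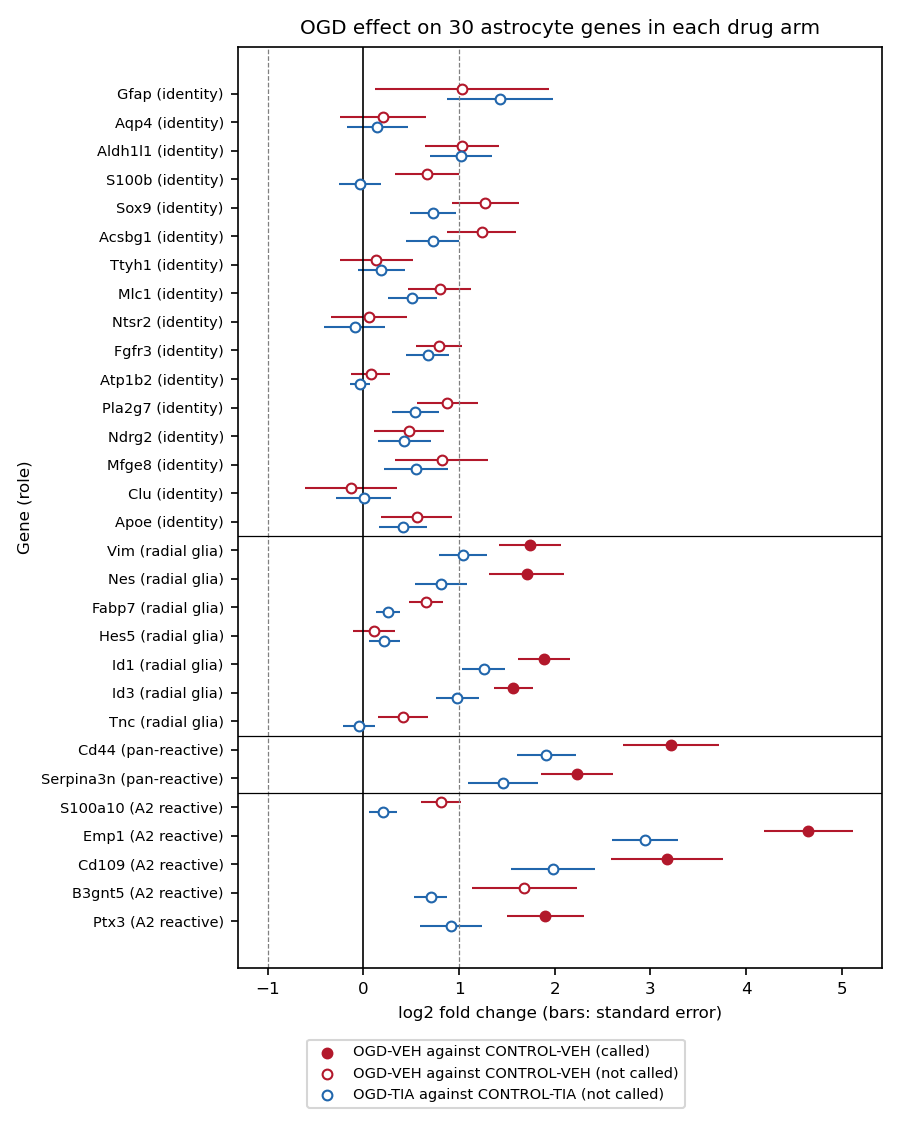
Log2FC after OGD of the 30 genes tested, without TIA (red) and with TIA (blue), with standard errors, filled where called; dashed lines mark -1 and 1. The called genes are in the radial glia and reactive groups and in the arm without TIA, and 26 of 30 red points lie to the right of the blue point of the same gene.

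The 5 genes under the filter were read from the fit without a filter and were not counted among the calls. *Steap4*, a metalloreductase of the pan-reactive set, was listed at 0 in all 4 CONTROL-VEH cultures and had 0.193, 1.02, 0.797 and 1.22 FPKM in OGD-VEH. *Slc14a1*, a urea transporter gene, had at most 0.0360 FPKM in CONTROL-VEH, against 0.136, 0.252, 0.205 and 0.690 FPKM in OGD-VEH. *Lcn2*, which encodes the iron-sequestering lipocalin and is a widely used marker of reactive astrocytes, had at most 0.0620 FPKM in any CONTROL-VEH culture, whereas it had 0.151, 0.198, 0.463 and 0.591 FPKM in OGD-VEH and 0.122, 0, 0 and 0 FPKM in OGD-TIA. The transglutaminase gene *Tgm1* reached 0.312 FPKM and the asparaginase gene *Aspg* 0.344 FPKM at most. These levels correspond to few reads. All 4 OGD-VEH cultures lay above all 4 CONTROL-VEH cultures for *Steap4*, *Slc14a1*, *Lcn2* and *Tgm1* and not for *Aspg*, against 2.48% of the 16186 genes under the filter. With isoforms weighted by length *Tgm1* overlapped too, at 0.115 FPKM in OGD-VEH 9 and 0.129 FPKM in CONTROL-VEH 3. The share of 2.48% counts every gene under the filter with a value above 0 in any of these cultures. It was not taken from genes of like level.

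Promoter sequence is shown for 3 genes: *Emp1*, which had the largest log2FC, *Steap4*, which was listed at 0 without OGD or TIA, and *Gfap*, the best-known astrocyte gene. AP-1 and STAT factors are known to bind regulatory regions of reactive astrocyte genes, and the letters TGANTCA (AP-1) and TTCNNNGAA (STAT) were searched in windows of 300 bases, from 250 before to 50 after each start site. Each pattern reads the same on both strands. The sequences are from RefSeq (GRCm38.p6), 5′ to 3′, with matches in capitals.
*Emp1* promoter, chr6:135362681-135362980, plus strand: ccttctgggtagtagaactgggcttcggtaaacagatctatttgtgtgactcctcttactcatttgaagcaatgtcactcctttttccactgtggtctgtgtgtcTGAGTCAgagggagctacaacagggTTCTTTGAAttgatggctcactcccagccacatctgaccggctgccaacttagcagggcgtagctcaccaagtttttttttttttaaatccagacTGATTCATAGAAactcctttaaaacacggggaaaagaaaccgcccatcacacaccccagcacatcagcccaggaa
*Steap4* promoter, chr5:7960222-7960521, plus strand: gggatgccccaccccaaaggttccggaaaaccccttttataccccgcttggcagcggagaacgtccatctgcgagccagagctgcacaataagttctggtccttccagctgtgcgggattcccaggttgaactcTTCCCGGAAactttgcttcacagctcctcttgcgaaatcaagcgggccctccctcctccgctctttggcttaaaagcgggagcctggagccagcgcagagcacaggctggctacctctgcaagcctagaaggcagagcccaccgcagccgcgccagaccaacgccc
*Gfap* promoter, chr11:102897151-102897450, minus strand: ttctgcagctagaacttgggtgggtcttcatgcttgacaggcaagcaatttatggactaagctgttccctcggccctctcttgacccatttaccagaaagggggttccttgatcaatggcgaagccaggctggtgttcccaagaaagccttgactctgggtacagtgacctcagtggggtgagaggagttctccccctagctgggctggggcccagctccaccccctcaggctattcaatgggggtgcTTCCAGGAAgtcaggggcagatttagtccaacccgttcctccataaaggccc
Windows were found for 27 of the 35 genes. The *Emp1* window shown, 1 of its 2, holds 2 AP-1 matches, 145 and 25 bases upstream of the start site, and 2 STAT matches, 120 and 22 bases upstream, of which the AP-1 match at 25 and the STAT match at 22 overlap. *Emp1* was the only one of the 27 with an AP-1 match, against 8.97% of all 27025 genes with a window. A STAT match was found for 7 of 27 genes (*Acsbg1*, *Emp1*, *Gfap*, *Ntsr2*, *Pla2g7*, *Steap4* and *Tgm1*), against 9.55% of all genes. It begins 116 bases upstream of the start site in *Steap4*. In *Gfap* it begins 2 bases upstream and runs across the start site. All distances are those of the first base of a match. A match describes the letters of the window and no binding was measured.

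The same contrast was made in cultures that had received TIA. Between OGD-TIA and CONTROL-TIA, limma called 0 of the 30 astrocyte genes and 0% of 16242 genes. An unadjusted p under 0.05 was reached by 15 of 30 genes, all higher after OGD, against 11.6% of all genes higher. Every OGD-TIA culture lay above every CONTROL-TIA culture for 14 of 30, against 9.51% of all genes. The median log2FC was 0.611, against 0.044 over all genes, and by role it was 0.470 for identity, 0.812 for radial glia, 1.69 for pan-reactive and 0.917 for A2 genes. *Emp1*, *Cd44* and *Cd109* again had the highest values. *Emp1* had 1.28, 1.05, 0.858 and 0.806 FPKM in CONTROL-TIA 5 to 8, against 6.81, 7.02, 5.52 and 17.5 FPKM in OGD-TIA 13 to 16 (log2FC 2.95 ± 0.35, padj = 0.0741). *Cd44* had 3.83, 2.91, 2.51 and 2.53 FPKM in CONTROL-TIA 5 to 8, against 7.03, 11.4, 9.62 and 20.5 FPKM in OGD-TIA 13 to 16 (log2FC 1.91 ± 0.31, padj = 0.0915). *Cd109* had 1.15, 0.786, 0.791 and 0.619 FPKM in CONTROL-TIA 5 to 8, against 1.99, 3.10, 2.73 and 9.13 FPKM in OGD-TIA 13 to 16 (log2FC 1.99 ± 0.44, padj = 0.115). All 3 were separate between the groups, and OGD-TIA 16 was the highest culture by a wide margin. *Serpina3n* had 1.28, 0.917, 1.06 and 1.13 FPKM in CONTROL-TIA 5 to 8, against 2.29, 2.79, 2.15 and 7.23 FPKM in OGD-TIA 13 to 16 (log2FC 1.46 ± 0.37, padj = 0.129). *Ptx3* had 3.09, 2.28, 3.21 and 2.82 FPKM in CONTROL-TIA 5 to 8, against 4.12, 4.82, 3.90 and 11.1 FPKM in OGD-TIA 13 to 16 (log2FC 0.92 ± 0.32, padj = 0.196). *B3gnt5* had 33.2, 39.7, 29.0 and 35.8 FPKM in CONTROL-TIA 5 to 8, against 51.1, 53.4, 46.1 and 76.9 FPKM in OGD-TIA 13 to 16 (log2FC 0.70 ± 0.17, padj = 0.125). These were also separate between the groups. With array quality weights, 5 genes were called (*Cd109*, *Cd44*, *Emp1*, *Id1* and *Serpina3n*), against 0.493% of all genes in that fit, and without OGD-TIA 16, 1 was (*Emp1*), against 0.0988% of all genes.

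The 4 radial glia genes called without TIA had separate groups with TIA too, at smaller log2FCs. *Vim* had 549.6, 397, 445 and 356 FPKM in CONTROL-TIA 5 to 8, against 745, 782, 697 and 1528 FPKM in OGD-TIA 13 to 16 (log2FC 1.04 ± 0.26, padj = 0.125). *Nes* had 25.5, 20.4, 23.1 and 18.8 FPKM in CONTROL-TIA 5 to 8, against 28.4, 33.1, 33.1 and 69.4 FPKM in OGD-TIA 13 to 16 (log2FC 0.81 ± 0.27, padj = 0.182). *Id1* had 5.25, 4.82, 4.31 and 4.09 FPKM in CONTROL-TIA 5 to 8, against 8.82, 13.7, 8.11 and 15.6 FPKM in OGD-TIA 13 to 16 (log2FC 1.26 ± 0.22, padj = 0.105). The OGD-TIA cultures 13 to 15 lay close to each other for *Vim* and *Nes*. *Id3* had 4.65, 3.79, 4.05 and 2.69 FPKM in CONTROL-TIA 5 to 8, against 6.28, 9.87, 5.79 and 8.67 FPKM in OGD-TIA 13 to 16 (log2FC 0.98 ± 0.22, padj = 0.116). Of the identity genes, *Gfap* had 7.71, 5.09, 6.05 and 15.1 FPKM in CONTROL-TIA 5 to 8, against 13.1, 17.4, 13.2 and 64.5 FPKM in OGD-TIA 13 to 16 (log2FC 1.43 ± 0.55, padj = 0.218). OGD-TIA 13 and 15 lay below CONTROL-TIA 8. *Aldh1l1* had 150.3, 72.9, 71.9 and 108 FPKM in CONTROL-TIA, against 175, 156, 154 and 344 FPKM in OGD-TIA (log2FC 1.02 ± 0.32, padj = 0.172), and *Sox9* had 18.6, 15.997, 15.6 and 16.3 FPKM and 21.4, 25.9, 21.8 and 47.4 FPKM (log2FC 0.73 ± 0.24, padj = 0.184). Both genes had separate groups in these sums. With isoforms weighted by length *Aldh1l1* overlapped, with 148 and 128 FPKM in OGD-TIA 14 and 15 and 152 FPKM in CONTROL-TIA 5. *Aqp4* and *S100b* overlapped, with 8.73, 9.96, 9.38 and 11.1 and 0.699, 0.899, 0.885 and 0.959 FPKM in CONTROL-TIA and 8.66, 8.86, 7.77 and 23.0 and 0.706, 0.964, 0.663 and 1.06 FPKM in OGD-TIA (log2FCs 0.15 and -0.03). The summed neuron markers were 3364, 3376, 3470 and 3528 FPKM in CONTROL-TIA, against 3184, 3129, 3281 and 2011 FPKM in OGD-TIA, so that OGD-TIA 16 was the lowest there as well.

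TIA without OGD was compared next. Between CONTROL-TIA and CONTROL-VEH, 0 of 30 genes were called by limma, with 0% of 16170 genes called, and 0 of 30 had an unadjusted p under 0.05, against 1.81% of all genes higher and 2.03% lower. The median log2FC was -0.062. It was -0.261 for the identity genes, 15 of 16 of which had a negative sign, and the mean of CONTROL-VEH includes the high values of CONTROL-VEH 4. For *Gfap* the log2FC was -0.76 ± 0.83, and 0.14 without CONTROL-VEH 4. *Aqp4* (-0.26) and *Sox9* (-0.18) also changed sign without that culture, to 0.067 and 0.003. None of the 30 genes had separate groups, against 0.965% of all genes above and 1.09% below.

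Whether TIA changed the levels reached after OGD was read from OGD-TIA against OGD-VEH. Again 0 of 30 genes were called by limma, with 0% of 16351 genes called. The log2FC was negative for 29 of the 30, with a median of -0.462 against -0.053 over all genes, and *Hes5* (0.05) was the exception. Over all 16351 genes, 7082 had a positive log2FC. The signs are not independent because the genes share these cultures, and OGD-VEH 12 was the highest of its group for all 30. An unadjusted p under 0.05 was reached by *Emp1* alone (log2FC -1.39 ± 0.47, padj = 0.551 from limma), against 5.04% of all genes with such a p and a lower level. *Cd44* had a log2FC of -1.10 ± 0.49 (padj = 0.551 from limma). With array quality weights, 4 of 30 genes were called, against 2.5% of all genes in that fit. The groups overlapped for all 30 genes, against 1.3% of all genes with every OGD-TIA culture above and 2.51% with every one below. The summed pan-reactive genes were 12.6, 42.6, 32.9 and 51.0 FPKM in OGD-VEH and 9.55, 14.3, 11.9 and 28.4 FPKM in OGD-TIA, so that OGD-VEH 9 lay within the OGD-TIA range and OGD-TIA 16 within that of OGD-VEH. Of the genes under the filter, *Lcn2* and *Tgm1* were lower in every OGD-TIA culture than in any OGD-VEH culture, against 1.24% of the 16321 genes under the filter. With isoforms weighted by length this was lost for *Tgm1*, for which OGD-VEH 9 (0.115 FPKM) lay below all 4 OGD-TIA cultures (0.160 to 0.240 FPKM). The share of 1.24% was likewise not taken from genes of like level.

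The difference between the OGD effects was then tested as an interaction over the 16 cultures. It was called for 0 of 30 genes and 0% of 16313 genes by limma. The log2FC after OGD was smaller with TIA for 26 of 30 genes, and the median interaction was -0.429, against -0.035 over all genes. Of all 16313 genes, 7471 had a positive interaction. Unadjusted p under 0.05 was reached by *Emp1* (-1.71 ± 0.62) and *S100a10* (-0.61 ± 0.27), both with padj = 0.722 from limma. Over all genes 3.4% had such a p with a negative sign. Thus the larger counts of calls without TIA are not shown to differ from those with TIA. With array quality weights, the interaction was called for 2 of 30 genes, against 0.619% of all genes in that fit. The arms share neither control nor OGD cultures, but each holds a last-numbered culture with high astrocyte genes after OGD and only CONTROL-VEH holds such a control.

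Over both drug arms together, 12 of 30 genes were called higher after OGD and 0 lower, against 2.8% of 16313 genes called higher and 4.78% called in either direction. All 9 genes called without TIA were among them, joined by *Aldh1l1* (log2FC 1.03 ± 0.26, padj = 0.0102), *Sox9* (log2FC 1.003 ± 0.23, padj = 0.00667) and *B3gnt5* (log2FC 1.19 ± 0.33, padj = 0.0144). A padj of at most 0.05 was reached by 18 of 30, against 18.7% of all genes higher, among them 6 of 16 identity genes (*Aldh1l1*, *Sox9*, *Acsbg1*, *Fgfr3*, *Pla2g7* and *Mlc1*). The canonical markers *Gfap* (padj = 0.101), *Aqp4* (0.663) and *S100b* (0.250) were not among them. For *Gfap* this rested on the cultures and isoforms used. It was called without CONTROL-VEH 4 (log2FC 1.67, padj = 0.0124 from limma) and without the cultures numbered 4, 8, 12 and 16 (log2FC 1.30, padj = 0.00532 from limma), and also with array quality weights (padj = 0.044) and with the highest isoform alone (padj = 0.041). With isoforms weighted by length its log2FC was 0.54 (padj = 0.334 from limma). All 8 OGD cultures lay above all 8 control cultures for 9 of 30 genes, against 3.22% of all genes. This count of calls was steadier than that without TIA, at 10 to 13 when any one of the 16 cultures was left out, while the calls over all genes moved between 526 and 1058, and it was 9 without the cultures numbered 4, 8, 12 and 16. *Emp1*, *Cd44*, *Cd109*, *Serpina3n*, *Ptx3*, *Id1*, *Id3*, *Vim*, *Nes* and *B3gnt5* were called without each of the 16 cultures in turn, *Aldh1l1* in 11 and *Sox9* in 9 of these fits. The calls of the 3 joined genes depended on the settings: of 10 alternatives, *B3gnt5* was called in 7 (padj up to 0.23), *Sox9* in 6 and *Aldh1l1* in 5.

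**Figure D4:**
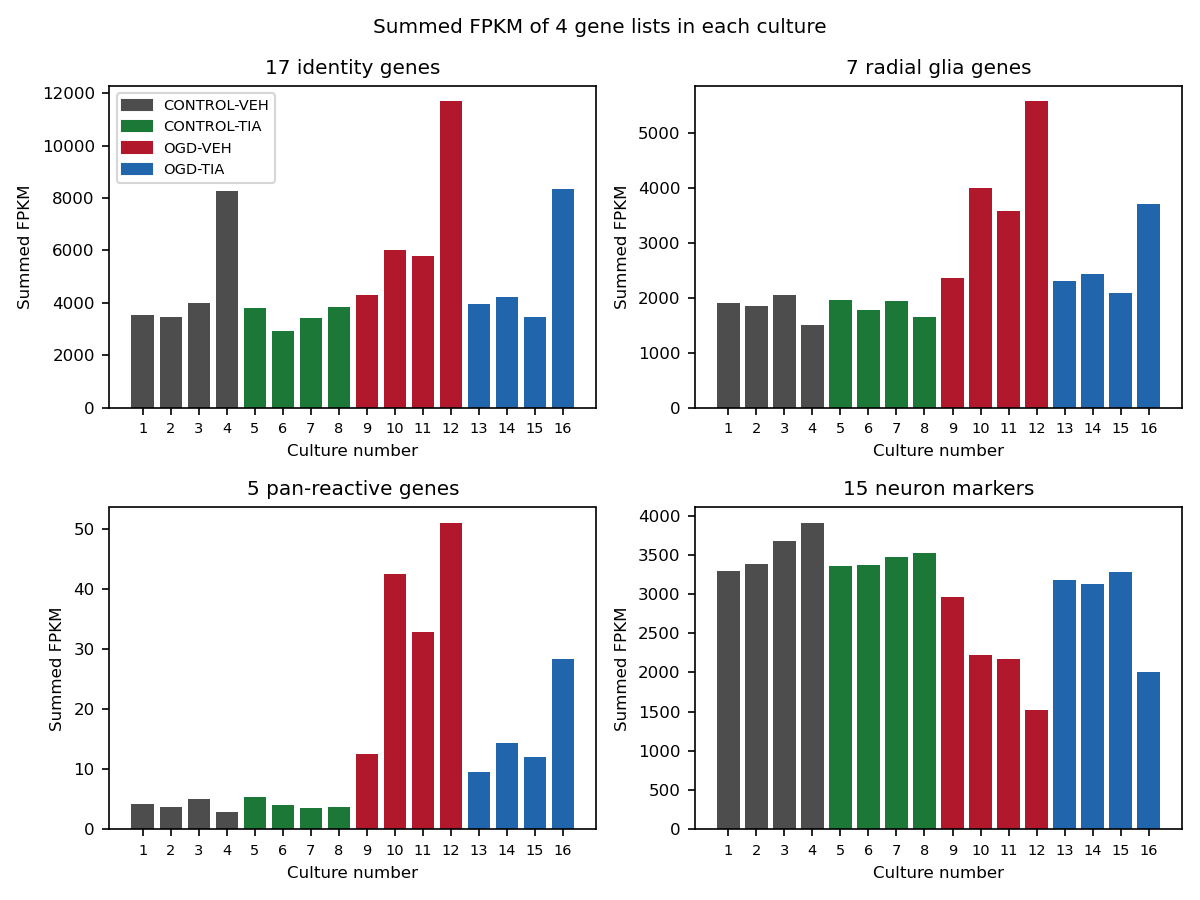
Summed FPKM of the 17 identity genes, 7 radial glia genes, 5 pan-reactive genes and 15 neuron markers in cultures 1 to 16, coloured by group. The identity genes are highest in cultures 4, 12 and 16, the radial glia and pan-reactive genes are high in the OGD cultures and not in culture 4, and the neuron markers are lowest in cultures 12 and 16.

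Related genes outside the 35 gave the following counts between OGD-VEH and CONTROL-VEH. Of 6 other pan-reactive genes, 3 reached the minimum level in CONTROL-VEH alone, and these were called higher: *Hspb1* (2.77), a small heat shock protein, *Osmr* (2.69), the oncostatin M receptor, and *S1pr3* (1.85), a sphingosine phosphate receptor. Of 6 other A2 genes, 1 did, the cytokine gene *Clcf1* (3.15), and it was called higher. Of 12 A1 genes, 6 did, of which 0 were called by limma and 0 had an unadjusted p under 0.05. A further 6 genes passed the filter only through their level after OGD, so that a difference was built into their selection and they are given as mean values without and with OGD. The chemokine gene *Cxcl10* had 0.194 and 8.74 FPKM, and *Timp1*, an inhibitor of matrix metalloproteinases, had 0.337 and 6.52 FPKM. *Gbp2*, an interferon-induced GTPase of the A1 set, had 0.222 and 7.99 FPKM. Of the A2 set, *Tm4sf1* had 0.222 and 5.18 FPKM, *Ptgs2*, the inducible cyclooxygenase, had 0.0563 and 1.94 FPKM, and *Sphk1*, a sphingosine kinase, had 0.173 and 1.05 FPKM. Among 19 other identity genes tested, which include the glutamate transporters *Slc1a2* and *Slc1a3*, 0 were called by limma and 3 had an unadjusted p under 0.05, with a median of 0.203. Each count of calls stands beside the 2.4% of all genes called higher. The counts at an unadjusted p under 0.05 stand beside the 20.2% of all genes with such a p and a higher level.

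Markers of the oligodendrocyte lineage moved with the called genes in part. Of 8 oligodendrocyte lineage markers tested, 4 were called higher after OGD without TIA: *Olig1* (1.25), *Olig2* (1.41) and *Sox10* (1.46), transcription factors of the lineage, and *Cspg4* (1.06), a proteoglycan of its progenitors. The share of all genes called higher was 2.4%. The myelin gene *Mbp* went the other way, with 5.88, 7.02, 5.73 and 10.1 FPKM in CONTROL-VEH, against 4.87, 3.72, 3.66 and 2.97 FPKM in OGD-VEH (log2FC -0.88 ± 0.23, padj = 0.0493), below the fold needed for a call, and *Mag*, another myelin gene, was under the filter, at 0.082 to 0.558 FPKM and 0.022 to 0.057 FPKM. The 10 markers of that list summed to 186, 199, 223 and 204 FPKM in CONTROL-VEH, against 255, 575, 541 and 707 FPKM in OGD-VEH, with no overlap. The 4 proliferation markers summed to 26.9, 29.6, 52.2 and 96.5 FPKM and 58.0, 186, 149 and 219.8 FPKM, with 0 of 4 called by limma and all 4 at an unadjusted p under 0.05. Such a p with a higher level was reached by 20.2% of all genes. Of 11 microglia markers, 1 passed the filter (*Aif1*, -0.40, padj = 0.593 from limma), and their sum ranged over 0.72 to 2.04 FPKM without OGD and 1.05 to 1.28 FPKM with it, in cultures without TIA. The part of the oligodendrocyte lineage and dividing cells in the levels of *Vim*, *Nes*, *Id1* and *Id3*, which those cells also express, was not tested.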

How the data were processed

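Libraries were made by the authors' service provider with a stranded mRNA kit and sequenced with 50-base single-end reads. Per the labels and the study's methods, quality was checked with FastQC, reads were mapped with STAR to GRCm38, isoform levels were estimated with eXpress and the authors tested read counts with DESeq2. The deposited values were taken to be TMM-scaled FPKM per isoform, from the name of the table. Of 135276 lines, 74 carry no identifier (0.0507% of summed FPKM) and were left out. GENCODE M21 (GRCm38) holds 99.82% of the isoform identifiers, and for 34 of the 35 genes the table's start and end equal those of GENCODE.

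Isoforms were summed per gene symbol, 0.1 was added and log2 was taken. Each comparison was fitted over all genes whose mean reached 0.5 FPKM, with limma 3.58.1 (trend, two-sided, R 4.3.3), in the 8 cultures compared, or in all 16 for the interaction and for OGD with drug arm as a term. limma replaced the authors' DESeq2, which needs counts. On simulated data (16170 genes, 200 changed, 4 cultures against 4 with the spread of the CONTROL cultures), 78.5 to 85% of the changed genes were recovered, with at most 9 false calls. These shares hold only for the CONTROL spread and the size of change set there. Recovery with the spread of the OGD cultures was not tested. Depth was estimated from the smallest steps of 17546 single-isoform genes, and because eXpress assigns reads by probability no counting intervals were computed. Python 3.11.15, pandas 2.3.3 and matplotlib 3.10.9 were used for the rest.

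The astrocyte genes and the marker lists were chosen with earlier results of these data known. Values in every culture were given for genes called in any comparison and for *Gfap*, *Aqp4*, *Aldh1l1*, *S100b* and *Sox9*, with examples of the others by level and p. Alternatives were other pseudocounts (1 and 0.01), no filter, a mean of 2 FPKM as filter, robust empirical Bayes, the highest isoform alone, array quality weights, median-ratio scaling, all 16 cultures in one fit, each culture left out, and the cultures numbered 4, 8, 12 and 16 left out together. Weighting isoforms by length was added after the short isoforms had been seen.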

Additional observations from a re-analysis of the deposited data

Results flagged for a closer look

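Of 120 sets of 4 cultures (30 genes in 4 groups), 24 held a culture that stood apart from the other 3 by Dixon's criterion for 4 values (the gap to the nearest culture relative to the range), where chance gives about 1 in 20. In 9 sets it was CONTROL-VEH 4, high for *Gfap* (87.4 FPKM), *Aqp4* (23.4 FPKM), *S100b* (1.33 FPKM), *Sox9* (27.5 FPKM), *Ttyh1* (1078 FPKM), *Ndrg2* (2058 FPKM), *Clu* (236 FPKM), *Apoe* (3535 FPKM) and *Tnc* (18.6 FPKM). In 12 sets it was OGD-TIA 16, high for the identity genes *Gfap* (64.5 FPKM), *Aqp4* (22.96 FPKM), *Aldh1l1* (344 FPKM), *Mlc1* (88.8 FPKM) and *Apoe* (3286 FPKM), for *Vim* (1528 FPKM) and *Nes* (69.4 FPKM), and for the reactive genes *Serpina3n* (7.23 FPKM), *S100a10* (179 FPKM), *Emp1* (17.5 FPKM), *Cd109* (9.13 FPKM) and *Ptx3* (11.1 FPKM). In 2 sets it was OGD-VEH 12, high for *Aqp4* (31.2 FPKM) and *Aldh1l1* (448 FPKM), and in 1 set it was OGD-VEH 9, low for *B3gnt5* (24.2 FPKM). With isoforms weighted by length, *B3gnt5* had 44.9 FPKM in OGD-VEH 9, above every CONTROL-VEH culture. The sets share their cultures and are not independent of each other.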

How the results depend on the processing

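No paired analysis was run because the cultures are numbered 1 to 16 across the groups and no number is shared by 2 groups. The labels give the place of a culture within its group only as an order, and it was not used as a block. Whether cultures in the same place share a preparation was not tested. In OGD-VEH against CONTROL-VEH the count of 9 became 2 with no filter on low values (more genes tested), 1 with the highest isoform alone and 0 without the cultures numbered 4, 8, 12 and 16 (fewer cultures), and 0 to 14 were called when a culture was left out. Of all genes, 0.111% were called with no filter, 0.12% with the highest isoform alone and 0.0122% without the last-numbered cultures. With a culture left out, 0.0061% to 13.4% of all genes were called. In OGD-TIA against CONTROL-TIA the count of 0 became 5 with array quality weights, 4 with isoforms weighted by length, 1 with all 16 cultures in one fit and 0 to 1 with a culture left out. The shares of all genes called there were, in that order, 0.493%, 0.382%, 0.00613% and at most 0.0988%. Array quality weights also gave 4 calls in OGD-TIA against OGD-VEH, with 2.5% of all genes called, and 2 in the interaction, with 0.619% called. The cause of these shifts was not tested, apart from the changes in genes and cultures named. The other alternatives kept each count within 1.5 times. Median-ratio scaling moved the median log2FC of all genes in OGD-VEH against CONTROL-VEH from 0.104 to 0.018, and 9 genes were called with it.

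The values that changed sign were all in comparisons in which the gene was not called, and the cause was not tested. Without the cultures numbered 4, 8, 12 and 16, *Aqp4* had -0.149 in OGD-TIA against CONTROL-TIA, 0.004 in CONTROL-TIA against CONTROL-VEH and -0.005 over both arms. In that fit *Aldh1l1* had 0.39 and *Gfap* -0.18 in the interaction, and *Cd44* (-0.084), *Ptx3* (0.11) and *Sox9* (0.012) changed sign in CONTROL-TIA against CONTROL-VEH. With array quality weights, *Aqp4* had -0.151 in OGD-TIA against CONTROL-TIA, *Cd44* -0.049 and *Ptx3* 0.056 in CONTROL-TIA against CONTROL-VEH, and *Aldh1l1* 0.185 in the interaction. Median-ratio scaling gave *Ptx3* 0.005 in CONTROL-TIA against CONTROL-VEH and *Aldh1l1* 0.029 in the interaction. With the highest isoform alone, *Id3* had -0.118 in CONTROL-TIA against CONTROL-VEH, 0.013 in OGD-TIA against OGD-VEH and 0.131 in the interaction, where *Aldh1l1* had 0.059, and *B3gnt5* had 0.751 in OGD-TIA against OGD-VEH.

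With each culture left out in turn, values of 15 genes (those given in every culture with their test) that crossed 0 ranged as follows. In CONTROL-TIA against CONTROL-VEH, *Aqp4* ranged over -0.41 to 0.067, *Gfap* -1.098 to 0.143, *Sox9* -0.265 to 0.003, *Cd44* -0.147 to 0.396, *Cd109* -0.083 to 0.446, *Nes* -0.07 to 0.268, *Ptx3* -0.102 to 0.109, *Serpina3n* -0.097 to 0.143 and *Vim* -0.174 to 0.034. In the interaction, the ranges were -0.284 to 0.334 for *Aldh1l1*, -0.418 to 0.34 for *Aqp4* and -0.512 to 0.946 for *Gfap*. In OGD-TIA against OGD-VEH, *Aqp4* had -0.682 to 0.076 and *Gfap* -0.906 to 0.183. In OGD-TIA against CONTROL-TIA, *Aqp4* had -0.211 to 0.306 and *S100b* -0.138 to 0.063. *Aqp4* had -0.192 to 0.537 in OGD-VEH against CONTROL-VEH and -0.009 to 0.328 over both arms. Of the other 15 genes tested, 5 crossed 0 in each comparison of OGD with control, 8 in CONTROL-TIA against CONTROL-VEH, 3 in OGD-TIA against OGD-VEH, 9 in the interaction and 3 over both arms. Genes near 0.1 FPKM rest on few reads per culture at the estimated depth.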
